A study of Homo sapiens with 6 samples.

Results

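The genes of O-GlcNAc cycling and of UDP-GlcNAc synthesis were followed in OE33 cells, an established line from a human esophageal adenocarcinoma, after a short exposure to acidified bile salts (ABS). They were taken by name from the table of 58735 genes, and all 8 were found: *OGT*, *OGA*, *GFPT1*, *GFPT2*, *GNPNAT1*, *PGM3*, *UAP1* and *NAGK*. The set was chosen by the difference between ABS and control counts in these same libraries, in which *OGT* was among the genes called lower. The ABS values of the 8 genes are therefore descriptions, and nothing is supported with them. Polyadenylated RNA was sequenced from 3 control cultures, which were untreated, and from 3 ABS cultures. ABS cells spent 20 min at pH 4.0 with 200 µM bile salts in medium without supplements, and then 6 h in complete medium. The acid, the bile salts and the medium without supplements were not separated, and whether control cultures had a change of medium is not given in the sources used here. The makeup of the bile salt mixture is not given either.

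O-GlcNAc is a single N-acetylglucosamine sugar that cells attach to serines and threonines of nuclear, cytoplasmic and mitochondrial proteins. *OGT* encodes the enzyme that adds it and *OGA* the enzyme that removes it, so a whole regulatory cycle rests on this pair of enzymes. The sugar donor, UDP-GlcNAc, is made from fructose 6-phosphate and glutamine in the hexosamine pathway, which also feeds the glycans of secreted and membrane proteins. In many cells, transcripts of *OGT* and *OGA* hold introns whose removal changes with the O-GlcNAc level, by which the cycle is adjusted.

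The 6 libraries held between 22145676 and 25235686 counts, and levels are given as CPM, the counts divided by the TMM-scaled library size and set on a common scale. Summed levels of 8 epithelial markers lay between 22300 and 24700 CPM in control and between 22900 and 24300 in ABS libraries. Those of 8 fibroblast markers lay between 2.67 and 4.11 CPM over all libraries, with *COL1A2*, *DCN* and *THY1* at 0. Most of this sum was *COL1A1*, at means of 2.94 CPM in control and 3.11 CPM in ABS libraries. Summed levels of 8 immune markers lay between 8.07 and 10.7 CPM, with *PTPRC*, *CD3E* and *MS4A1* at 0. Here *CD14* held most, at means of 5.33 and 4.84 CPM, followed by *CD79A* (2.61 and 2.23), *LYZ* (1.04 and 1.27) and *ITGAM* (0.302 and 0.923). Of the immune markers *ITGAM* alone was higher in every ABS library than in every control library, as were 7.57% of all tested genes. Replicate 3 of control and of ABS lay away from the rest on the second principal component (25.9% of the variance), at −19 and −29 against 2.73 to 18.5 for the other 4. Each member's values are therefore given by library.

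The sequences ahead of the start sites of *OGT* and *OGA* are shown because these genes encode the opposing steps of the cycle. Each is the 250 bases before the RefSeq start on GRCh38.p14, 5′ to 3′ on the strand of the gene, at chrX:71532854-71533103 (plus strand) for *OGT* and at chr10:101818445-101818694 (minus strand) for *OGA*. The RefSeq starts lie downstream of the gene starts in the deposited table, so the last 21 bases of each window are inside the gene as counted. Capitals mark every match, on either strand, to 7 motifs: GCGTG (the core bound by AHR), TGACNNNGC (NRF2), TGANTCA (AP-1), TGACGTGG (XBP1), CACGTG (the E-box), GGGCGG (the GC box) and CCAAT.

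OGT: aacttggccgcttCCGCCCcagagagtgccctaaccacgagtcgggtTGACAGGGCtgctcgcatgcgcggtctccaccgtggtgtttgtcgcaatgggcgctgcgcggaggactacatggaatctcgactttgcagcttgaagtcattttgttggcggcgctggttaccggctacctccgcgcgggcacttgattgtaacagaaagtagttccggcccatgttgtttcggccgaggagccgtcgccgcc

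OGA: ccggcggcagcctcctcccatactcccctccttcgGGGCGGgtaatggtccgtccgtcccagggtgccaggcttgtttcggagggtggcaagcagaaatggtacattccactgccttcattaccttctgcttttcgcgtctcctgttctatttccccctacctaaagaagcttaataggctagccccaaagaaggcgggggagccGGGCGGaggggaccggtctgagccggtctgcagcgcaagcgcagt

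Both windows had a GC content of 60.8%, against a median of 58.0% over the 35116 RefSeq windows of this length. The *OGT* window held 1 GC box, as CCGCCC, and 1 match to TGACNNNGC, as TGACAGGGC, with its first base at −203 from the start. The *OGA* window held 2 GC boxes. Of all windows, 42.6% held a GC box, 10.9% held TGACNNNGC, 32.2% GCGTG, 32.0% CCAAT, 6.57% TGANTCA, 6.34% CACGTG and 0.612% TGACGTGG. The last 5 were not found in either of these 2 windows, and no matches overlapped. These letters describe the windows and say nothing of binding.

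Among the enzymes of the cycle, the transferase gene *OGT* (ENSG00000147162, chromosome X, 71533083 to 71575897) held 69.2, 70.9 and 64.3 CPM in control libraries 1, 2 and 3. It held 45.7, 45.6 and 52.5 CPM in ABS libraries 1, 2 and 3. All 3 ABS libraries lay below all 3 control libraries, and the replicate 3 libraries were the closest to the other group. The means were 68.1 ± 3.45 and 47.9 ± 3.94 CPM (SD, 3 libraries each), and the log2 fold change was −0.51 ± 0.09 (SE). That is 0.704 of the control level, with a 95% interval of 0.618 to 0.801. In bulk RNA, a change in the RNA of each cell and a change in the share of cells that express a gene cannot be told apart. Its raw counts lay between 1042 and 1629 per library.

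The hydrolase gene *OGA* (ENSG00000198408, chromosome 10, 101784443 to 101818465) held 110, 116 and 107 CPM in control and 128, 136 and 108 CPM in ABS libraries. ABS replicates 1 and 2 lay above every control library, and ABS replicate 3 lay among them. The log2 fold change was 0.16 ± 0.09 (SE), a level of 1.12 times control with a 95% interval of 0.978 to 1.28. The difference between same-numbered libraries was 0.23 (log2) in replicates 1 and 2 and 0.01 in replicate 3, while for *OGT* it was −0.60, −0.64 and −0.29. Both genes thus differed less between the replicate 3 libraries than between the others.

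The balance of the pair can be read as a ratio within each library, in TPM, which scales counts by gene length and by the sum over all genes. The TPM ratio of *OGA* to *OGT* was 2.15, 2.22 and 2.25 in control and 3.80, 4.04 and 2.78 in ABS libraries. The means were 2.20 ± 0.0533 and 3.54 ± 0.668 (SD, n = 3). Control libraries were thus close together, while the ABS libraries spread widely and all lay above them. The size of the ratio depends on the lengths used, and its ABS difference contains the *OGT* difference that was known when the genes were chosen.

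**Figure D1:**
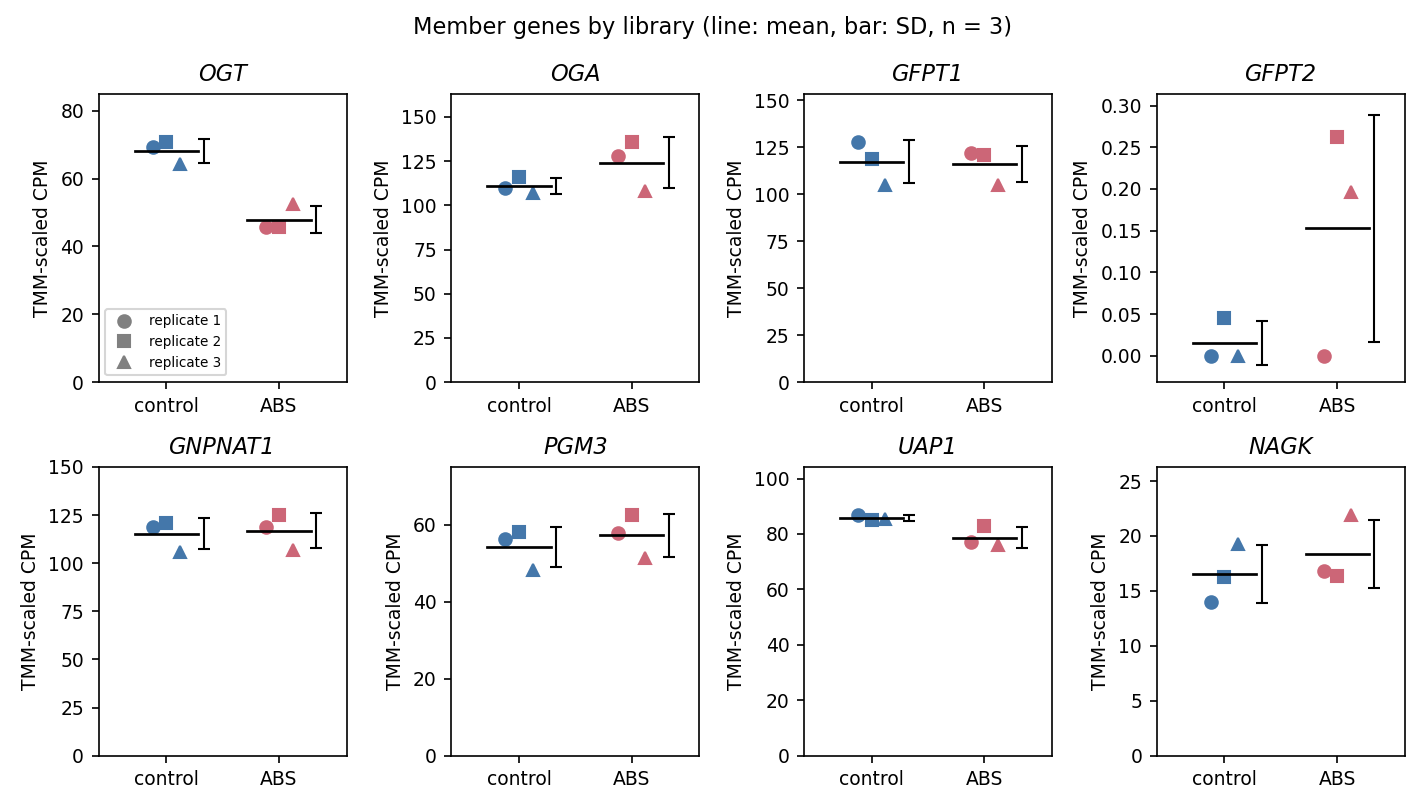
TMM-scaled CPM (y axis) of the 8 genes in each control and ABS library, with the mean as a line and the SD as a bar (n = 3). *OGT* lies at 64.3 to 70.9 CPM in control and at 45.6 to 52.5 CPM in ABS libraries, while for the other genes apart from *UAP1* the groups overlap.

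The entry step of the hexosamine pathway, which joins an amino group of glutamine to fructose 6-phosphate and limits its rate, is encoded by *GFPT1* and its paralogue *GFPT2*. *GFPT1* (ENSG00000198380, chromosome 2, 69319769 to 69387254) held 128, 119 and 105 CPM in control and 122, 121 and 105 CPM in ABS libraries. In both groups replicate 3 was the lowest library. The ABS level was 0.991 of control, with a 95% interval of 0.865 to 1.14. *GFPT2* (ENSG00000131459, chromosome 5, 180300690 to 180353387) had 0, 1 and 0 counts in control and 0, 6 and 5 counts in ABS libraries. The ABS to control ratio of its summed counts was 10.5 after scaling, with an exact binomial 95% interval of 1.52 to 451 that covers counting error only. The zero in ABS replicate 1 overlaps the control libraries, and the gene did not pass the filter on low counts. Of all counts of the 2 paralogues, 0.0721% were from *GFPT2* (exact 95% interval 0.0372% to 0.126%). No run of 50 bases was shared between coding transcripts of *GFPT2* and transcripts of any other gene.

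The next enzymes turn glucosamine 6-phosphate into UDP-GlcNAc. *GNPNAT1*, which encodes the acetyltransferase (chromosome 14, 52775194 to 52791668), held 119, 121 and 106 CPM in control and 119, 125 and 107 CPM in ABS libraries. *PGM3*, which encodes the phosphate mutase (chromosome 6, 83161150 to 83193936), held 56.2, 58.2 and 48.2 CPM in control and 57.8, 62.5 and 51.4 CPM in ABS libraries. For both genes the groups overlapped and replicate 3 was the lowest library of its group. The ABS level was 1.01 of control for *GNPNAT1* (95% interval 0.895 to 1.15) and 1.06 for *PGM3* (0.909 to 1.23).

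*UAP1*, which encodes the pyrophosphorylase of the final step (chromosome 1, 162561506 to 162599842), held 86.8, 85.0 and 85.3 CPM in the control libraries. In the ABS libraries it held 77.0, 82.9 and 76.0 CPM. In CPM the groups did not overlap, which was also so in 14.5% of all tested genes, and the smallest gap lay between control replicate 2 and ABS replicate 2. In TPM they overlapped, with 88.3 in control replicate 2 and 88.4 in ABS replicate 2. The ABS level was 0.917 of control, with a 95% interval of 0.823 to 1.02 that includes no change. Among control libraries the coefficient of variation of its CPM was 1.12%, against a median of 9.73% over all tested genes.

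*NAGK* (chromosome 2, 71064344 to 71079805) encodes the kinase that returns N-acetylglucosamine freed from degraded glycans to the pathway. It held 14.0, 16.3 and 19.3 CPM in control and 16.8, 16.4 and 21.9 CPM in ABS libraries. Replicate 3 was the highest library in both groups, the reverse of the order seen for *GFPT1*, *GNPNAT1* and *PGM3*. The ABS level was 1.11 of control (95% interval 0.885 to 1.39), and the groups overlapped.

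Counted together, 7 of the 8 genes passed the filter on low counts. Of these 7, 1 passed the edgeR threshold (adjusted p under 0.05), namely *OGT*, and it was lower. Over all 13768 tested genes 0.436% passed in either direction and 0.0654% in the lower direction, and nothing is read from the member count since its contrast chose the set. The median log2 fold change of the 7 was 0.02, beside 0.00 over all tested genes, with 4 above and 3 below 0. In CPM, groups did not overlap in 2 of the 7, *OGT* and *UAP1*, both lower, while of all tested genes 6.95% were lower and 7.57% higher in this way. *OGT* also passed with DESeq2, where 1.92% of tested genes did, and in a model that set replicate 3 apart (3.38%). With replicates 1 and 2 only, 13.2% passed, and *OGA* (0.23, against 0.16 over all libraries) did so too. The call of *OGT* ended when a library was left out that was control replicate 1 (−0.50 on the log2 scale, edgeR adjusted p = 0.173) or control replicate 2 (−0.48, 0.236). The same held for ABS replicate 1 (−0.47, edgeR adjusted p = 0.240) and ABS replicate 2 (−0.47, 0.169). It also ended with library size alone as the scaling (edgeR adjusted p = 0.0578).

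Levels were compared between genes in TPM, with the gene length as deposited, which equals the union of all annotated exons in GENCODE release 29. *GNPNAT1* was the most abundant in control cells at 106 ± 3.15 TPM (SD, n = 3), followed by *UAP1* at 91.9 ± 3.80, *OGA* at 56.3 ± 1.25 and *GFPT1* at 48.6 ± 3.45 TPM. *PGM3* followed at 27.1 ± 1.54, *OGT* at 25.6 ± 0.245, *NAGK* at 6.88 ± 1.37 and *GFPT2* at 0.0113 ± 0.0196 TPM. Over the 6 libraries the TPM ranges of neighbours in this order did not overlap, except those of *PGM3* (25.4 to 31.2) and *OGT* (17.0 to 25.8).

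This order rests on the length. For *OGT*, 43.6% of the 9812 counted bases lie outside its 3 coding transcripts, and 4156 of them belong to transcripts annotated with a retained intron, of which there are 5. For *NAGK* 65.3% of 8894 bases lie outside the coding transcripts, for *UAP1* 30.8%, for *OGA* 15.3%, and for *GNPNAT1*, *GFPT1* and *PGM3* between 1.07% and 6.37%. The deposited counts therefore do not separate coding *OGT* mRNA from transcripts that keep an intron. When the length of the principal transcript was used instead, a choice made after seeing the data, 3 of the 8 genes kept their place in the order. Only the length was changed, while the counts of each gene and the scaling over all genes stayed the same. Reads from outside the principal transcript are thus still counted, and the values can overstate the level of that transcript. *UAP1* then led at 133 ± 5.49 on the TPM scale, *NAGK* stood at 53.0 ± 10.5 beside *GFPT1* at 49.9 ± 3.55, and *OGT* stood at 45.9 ± 0.439. On that scale the 6-library ranges of *NAGK* (44.1 to 72.8) and *GFPT1* (46.7 to 53.9) overlapped. So did those of *OGT* and *NAGK*, so the places of *NAGK* beside *GFPT1* and *OGT* are not set by the data. The ranges of *OGT* (30.6 to 46.3) and *PGM3* (30.5 to 37.5) overlapped through the ABS libraries, where *OGT* stood at 32.7 ± 3.54. In control cells *PGM3* stood at 32.6 ± 1.85, below *OGT*. *GFPT2* was the lowest and *OGA* the third under both lengths.

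**Figure D2:**
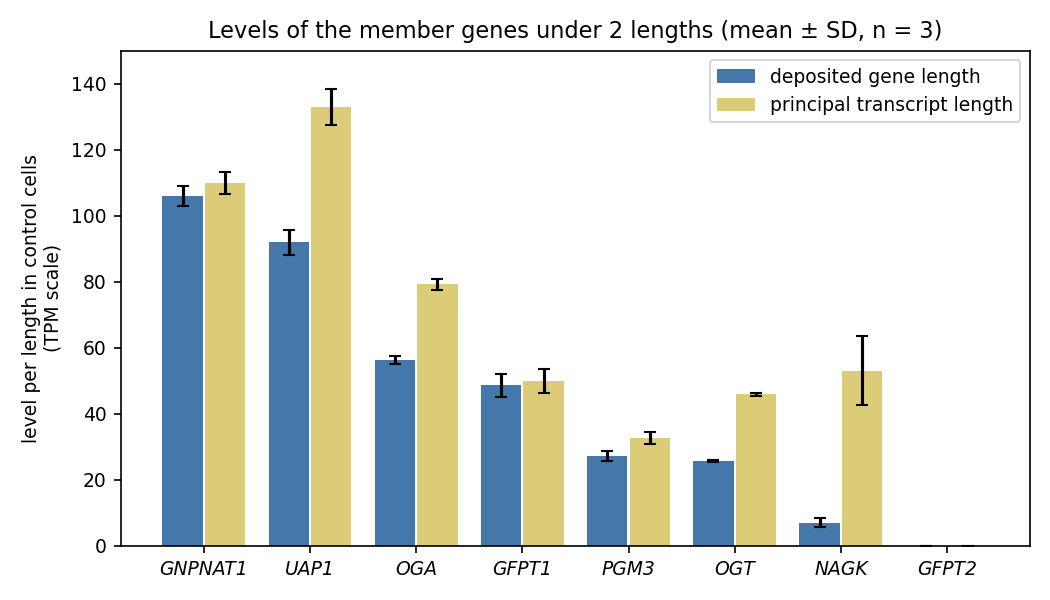
Level per length in control cells (TPM scale, y axis, from 0; bars are means and error bars the SD of 3 libraries) of the 8 genes, with the deposited gene length and with the length of the principal transcript. *NAGK* moves from 6.88 to 53.0 and *OGT* from 25.6 to 45.9, while *GFPT1* and *GNPNAT1* change little. The counts are the same under both lengths.

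Other genes can share reads with the members where exons overlap. *GNPNAT1* shares 1426 exon bases, or 35.6% of its exons, with AL139317.3 on the opposite strand, and that gene had 0 counts in all libraries. *PGM3* shares 1087 exon bases with *DOP1A* on the opposite strand, which had 2128 counts over the 6 libraries. The strand setting of the counting is not given in the sources used here, so the reads of these overlaps may be missing from, or split between, the 2 genes. No exon of another gene overlapped those of *OGT*, *OGA*, *GFPT1*, *GFPT2*, *UAP1* or *NAGK*.

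Around the 8 genes, 71 further genes of the pathway in 8 lists were examined, and 69 passed the filter. The edgeR test over all genes called 0 of the 69, beside 0.436% of all tested genes. Without adjustment 9 of the 69 had a p under 0.05, beside 9.75% of all tested genes. In CPM the groups did not overlap in 7 higher and 3 lower genes of the 69, beside 7.57% and 6.95% of all tested genes. DESeq2 called 2 (*SRSF6* and *UAP1L1*), beside 1.92% of all genes, and limma-voom 0, beside 0.45%. Their log2 fold changes had a median of 0.04, beside 0.00 over all tested genes, with 40 above and 29 below 0. For 62 of the 69 the 95% interval of the change lay within 1.5-fold in both directions. Those for which it reached further included *UAP1L1*, *SLC2A3*, *SLC35A1*, *HAS2*, *CLK4* and *SRSF6*.

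Of 8 genes for partners of OGT and related enzymes, 7 were tested and 0 passed. *HCFC1*, a transcriptional co-regulator that OGT cleaves into its mature form, held 296, 276 and 314 CPM in control and 389, 346 and 316 CPM in ABS libraries. These groups did not overlap, but ABS replicate 3 lay next to control replicate 3, and the edgeR adjusted p was 0.311. *SIN3A*, a corepressor scaffold that binds OGT, had a log2 fold change of −0.12 ± 0.09 (SE). *EOGT*, which adds O-GlcNAc to extracellular domains in the endoplasmic reticulum, held 12.6 ± 1.69 CPM in control and 12.6 ± 0.37 CPM in ABS cells (SD, n = 3), and was named after its values were seen.

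Among 5 genes of return and side steps, 4 were tested and 0 passed. All 4 log2 fold changes were below 0, as were 7023 of all 13768 tested genes, and their median was −0.07. *UAP1L1*, a paralogue of *UAP1*, held 24.9, 26.1 and 20.2 CPM in control and 16.9, 18.4 and 16.0 CPM in ABS libraries. The groups did not overlap, and the level in ABS cells was 0.721 of control (95% interval 0.600 to 0.867, edgeR adjusted p = 0.128). *UAP1L1* passed with DESeq2 (adjusted p = 0.0400) and without control replicate 3 (edgeR adjusted p = 0.0146). It did not pass when any other library was left out (edgeR adjusted p up to 0.613), nor with limma-voom (adjusted p = 0.151). *GNPDA1*, a deaminase that reverses the entry step, held 113 ± 12.5 CPM in control and 113 ± 14.1 CPM in ABS cells (n = 3). *AMDHD2*, the deacetylase that reverses the acetylation, had a log2 fold change of −0.13 ± 0.11.

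The supply of glucose and glutamine was represented by 9 tested genes, of which 0 passed. Without adjustment 4 of these 9 had an edgeR p under 0.05, 3 lower and 1 higher. This compares with 9 of the 69 genes over the 8 lists and 9.75% of all tested genes. *HKDC1*, of the hexokinase family, had a log2 fold change of −0.30 ± 0.13 (SE, edgeR adjusted p = 0.445). *SLC2A1*, the main glucose transporter of many epithelial cells, and *GPI*, which supplies fructose 6-phosphate, had log2 fold changes of 0.13 ± 0.10 and −0.07 ± 0.08.

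Genes that use UDP-GlcNAc or related sugars gave 0 calls among 10 tested genes of nucleotide sugar branches, 6 transporters, 10 genes of N-glycan and hyaluronan synthesis and 5 genes of lysosomal release. *UGDH*, which makes UDP-glucuronate, held 191, 189 and 198 CPM in control and 253, 237 and 201 CPM in ABS libraries. As for *HCFC1*, ABS replicate 3 lay next to the control libraries (edgeR adjusted p = 0.284), and *UGDH* passed without that library (0.0244). It did not pass when any other library was left out (edgeR adjusted p up to 0.82). The UDP-GlcNAc transporter gene *SLC35A3* had a log2 fold change of 0.19 ± 0.09, with ABS libraries all above control libraries, and an edgeR adjusted p of 0.546. *SLC35D1* had a log2 fold change of 0.22 ± 0.10, *SLC35A2* one of 0.04 ± 0.10, and *NANP*, a phosphatase of sialic acid synthesis, one of 0.13 ± 0.09. *PGM1*, which interconverts glucose phosphates, had one of −0.06 ± 0.12. *MGAT4B*, a branching enzyme of N-glycans, held 444 ± 19.1 and 430 ± 16.8 CPM, and the hyaluronan synthase gene *HAS3* 160 ± 37.7 and 169 ± 23.8 CPM in control and ABS cells (SD, n = 3). *HAS2*, another hyaluronan synthase gene, had a log2 fold change of 0.29 ± 0.18, and *ALG14*, which acts early in N-glycan assembly, one of −0.14 ± 0.16. The lysosomal genes *HEXA* and *NAGLU* had log2 fold changes of 0.10 and −0.14.

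Regulators of splicing were followed because introns of *OGT* and *OGA* transcripts are known to be kept or removed in response to O-GlcNAc. Of 18 tested genes 0 passed, with a median log2 fold change of 0.09 and 14 above 0. Over all 13768 tested genes the median was 0.00, with 6745 above 0. *SRSF6*, a serine- and arginine-rich splicing factor, held 260, 268 and 311 CPM in control and 372, 402 and 348 CPM in ABS libraries. The groups did not overlap, and the log2 fold change of 0.42 ± 0.08 (SE) had an edgeR adjusted p of 0.0577. *SRSF6* was called by DESeq2 (adjusted p = 0.00131), and by edgeR when control replicate 3 (adjusted p = 0.00264) or ABS replicate 3 (0.0156) was left out. It was not called when any other library was left out (edgeR adjusted p up to 0.363), nor by limma-voom (adjusted p = 0.0553). *SRSF7* had a log2 fold change of 0.22 ± 0.07 (edgeR adjusted p = 0.199), *SRSF3* one of 0.15 ± 0.09 and *SRRM2* one of 0.04 ± 0.10. *SFSWAP* had one of −0.15 ± 0.09, and the kinase genes *CLK1*, *CLK2*, *CLK3* and *CLK4* had 0.04, −0.06, −0.02 and 0.22, these 5 being named after their values were seen.

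**Figure D3:**
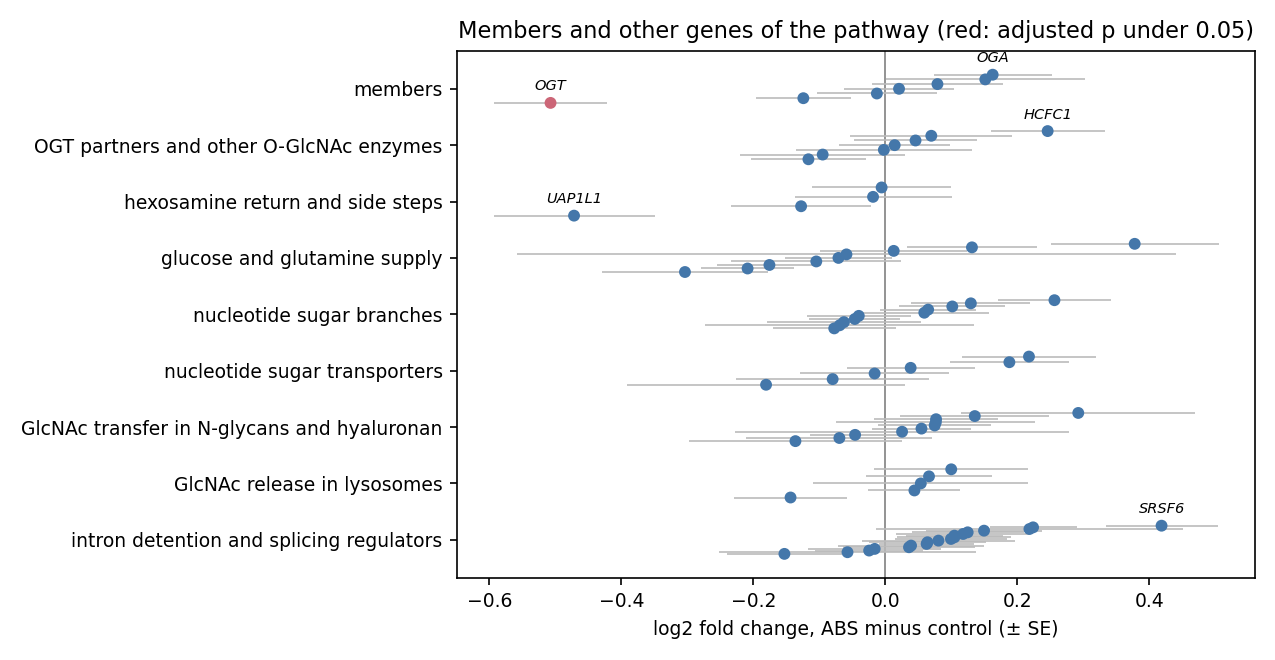
Log2 fold change, ABS minus control (x axis, ± SE from edgeR, 3 libraries per group), of the tested members and of the tested genes of 8 pathway lists, 1 point per gene. *OGT* at −0.51 is the point past the threshold of 0.05, and *UAP1L1* at −0.47 and *SRSF6* at 0.42 lie farthest from 0 on either side among the other genes.

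Genes near *OGT* on chromosome X were examined to see whether its difference was shared along the chromosome. Within 1 Mb on either side lay 60 annotated genes, 11 of which passed the filter, and 0 of the 11 passed the edgeR test over all genes (1 of 11 had a p under 0.05 before adjustment, beside 9.75% of all tested genes, and DESeq2 and limma-voom called 0). Their median log2 fold change was −0.06, within a range of −0.45 to 0.20, with 3 above and 8 below 0. Of all 13768 tested genes 7023 lay below 0. The low end among the 11 was *FOXO4*, named after its values were seen, at means of 1.25 and 0.905 CPM in control and ABS cells and with an SE of 0.502. The nearest, *TAF1*, which encodes the largest subunit of the general factor TFIID, ends 0.709 kb before *OGT* on the same strand. *TAF1* held 27.7 ± 6.10 CPM in control and 31.8 ± 7.52 CPM in ABS cells, a log2 fold change of 0.20 ± 0.18 (SE, edgeR adjusted p = 0.787). The nearest tested gene on the other side, *PIN4*, lay 605 kb away with a log2 fold change of −0.20 ± 0.18. *ZMYM3* held 30.6 ± 1.79 and 24.6 ± 3.24 CPM (−0.32 ± 0.11, edgeR adjusted p = 0.325), and was named after its values were seen.

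**Figure D4:**
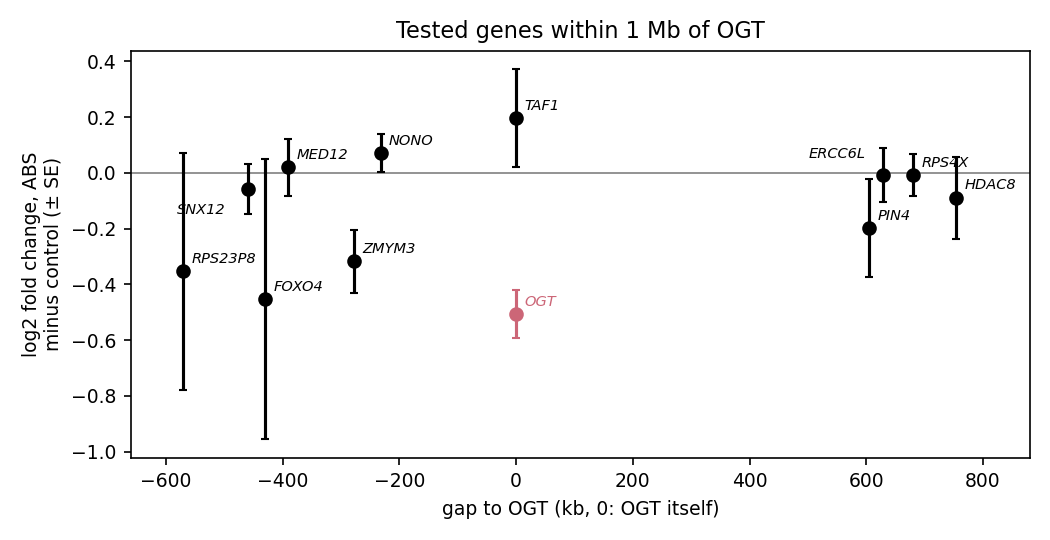
Log2 fold change, ABS minus control (y axis, ± SE), of *OGT* and the 11 tested genes within 1 Mb, by their gap to *OGT* in kb (x axis). *TAF1* at 0.20 and *OGT* at −0.51 lie side by side.

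The pattern of *OGT* over the 6 libraries was compared with those of 10076 other tested genes with a mean of at least 5 CPM. Likeness was the root mean square difference of log2 CPM after each gene was centred on its own mean, with a median of 0.289 over these genes. The 5 nearest genes included *GID4* (0.0510), *SOX4* (0.0545), *SOX13* (0.0577) and *C1orf226* (0.0610). *SOX4*, a transcription factor of the SOX family, held 148, 151 and 145 CPM in control and 108, 100 and 112 CPM in ABS libraries. Like *OGT*, these 4 genes were lower in every ABS library than in every control library, which the measure itself favours. Of the other members, *UAP1* came nearest to *OGT* at 0.219, and *NAGK* (0.375) and *OGA* (0.373) were the farthest, each above the median.

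**Figure D5:**
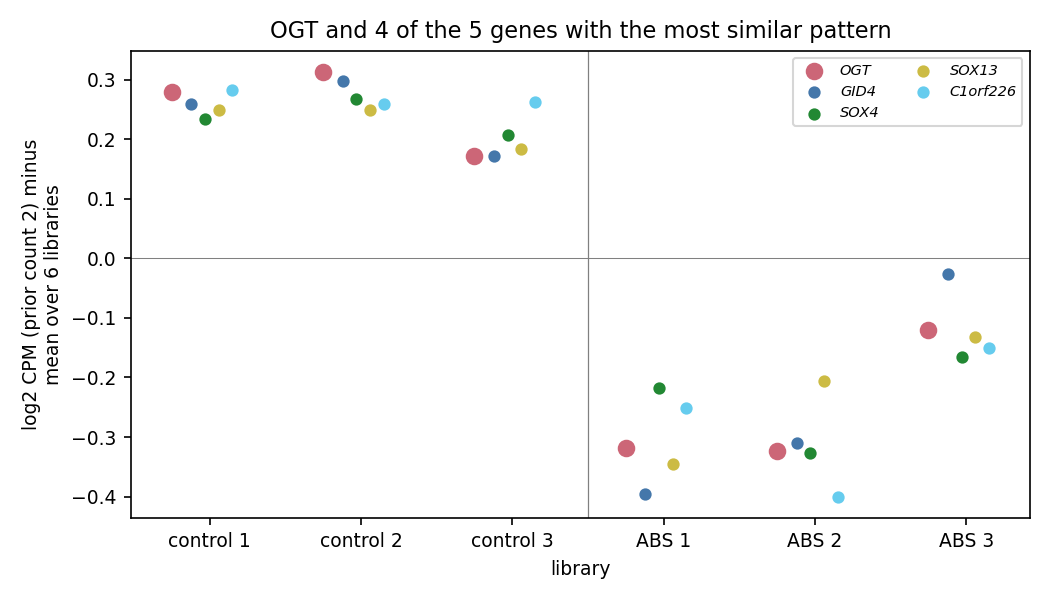
Log2 CPM with a prior count of 2, centred on the mean over the 6 libraries (y axis), of *OGT* and 4 of its 5 nearest genes in each library (x axis). Every control point lies above 0 and every ABS point below 0, and for each gene shown ABS replicate 3 lies above the other 2 ABS libraries.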

How the data were processed

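The authors deposited raw counts per gene in 1 column per library. Per the submitters' processing notes, HISAT2 2.0.5, featureCounts 1.5.0-p3 and GRCh38 were used, and strand and multi-mapping settings are not given in the sources used here. Gene lengths are as deposited, and all 58735 identifiers had identical coordinates in GENCODE release 29. From the counts, genes were kept by filterByExpr (minimum count 10, minimum total 15), TMM-normalized, and tested with the quasi-likelihood F-test of edgeR 4.0.16 (R 4.3.3) on a model holding group alone. Benjamini-Hochberg adjustment ran over 13768 genes at a threshold of 0.05. SE is the log2 fold change divided by the square root of F, and 95% intervals use its t distribution.

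The fit was tested on simulated data. It recovered 51.2% of 1.5-fold, 87.3% of 2-fold and 89.7% of 4-fold changes, and 13 of 155 calls were false. Changes near 1.5-fold can therefore be missed. The simulated libraries were drawn independently and held no shift shared by the replicate 3 libraries, so the rates may differ in the real data. DESeq2 1.42.0 and limma 3.58.1 were alternatives. The members and lists were chosen with earlier results of these data known. Named in each list were genes past the threshold, or otherwise the 2 most abundant and the 2 with the largest change, together with the 5 genes most like *OGT* and the nearest neighbours on each side. Promoter windows are from RefSeq tables on GRCh38.p14, which held all 8 genes. Some genes that this rule names are not reported here. No set test was made.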

Additional observations from a re-analysis of the deposited data

How the results depend on the processing

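The log2 fold change of *OGT* was −0.51, lay between −0.62 and −0.47 over 15 alternatives, and passed in 10 of them. It was −0.52 with library size alone, where 0 members, 31 higher and 4 lower genes passed, against 51 and 9. When 1 library was left out, it lay between −0.58 and −0.47 and passed in 2 of 6 fits, those without a replicate 3 library. In these 6 fits, 11 to 321 genes were higher, 1 to 117 lower, 0 to 2 pathway genes higher, 0 to 1 lower, and 0 to 1 member lower. Counts of higher and lower genes, and of pathway genes (0 and 0), were 184 and 80 (pathway 1 and 1) with DESeq2, and 291 and 118 (2 and 1, with *SRSF6* and *UAP1L1* among them) without a filter. Modelling the replicate 3 libraries by a term gave 308 and 157 (3 and 2). The robust fit called 1 pathway gene higher. With replicates 1 and 2 only, 1079 genes were higher and 734 lower, or 13.2%. That fit called 11 pathway genes higher and 4 lower (21.7% of 69), 1 neighbour of *OGT* (*ZMYM3*) lower and 1 member (*OGA*) higher. Fitting the replicate number as a block gave 244 higher and 106 lower genes, 2 and 1 of the pathway, and an *OGT* value of −0.51. The numbers were not shown to pair the cultures. In their deviations from group means, same-numbered libraries correlated at 0.04, 0.03 and 0.17, the last between the replicate 3 libraries. Libraries with different numbers correlated between −0.12 and 0.09. With the principal transcript length 3 of 8 members kept their place. The cause of these differences was not tested. The settings on the replicate 3 libraries were chosen with earlier results of these data known, and the principal transcript length after seeing the data. The filter left *GFPT2* untested, and its 12 counts limit what can be said of it.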
